A study of Mus musculus with 25 samples.

Results

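A366 and RK-701 are small-molecule inhibitors of G9a, the enzyme that places mono- and dimethyl marks on lysine 9 of histone H3 (H3K9), and both were given alone to mouse embryos made by somatic cell nuclear transfer (SCNT). The comparison took the 2 libraries of A366-treated embryos against the 3 libraries of RK-701-treated embryos, which is 5 of the 25 RNA-seq libraries in the study, and used the counts of genes and of transposable element (TE) families. Members were chosen by the treatment named in the labels and not by any measured value. The study asked, as far as its methods state, how inhibitors of H3K9 methylation and an inhibitor of histone deacetylases change the transcriptome of cloned 2-cell embryos. Both compounds are known by code names, and no structure is given for either.

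In both groups the nuclei of cumulus cells, the somatic cells around the oocyte, from wild-type BDF1 (C57BL/6N × DBA2) females were injected into enucleated BDF1 oocytes. All 5 libraries also came from embryos that received latrunculin A, an inhibitor of actin assembly, so latrunculin A is shared by the groups and is not part of the comparison. Each inhibitor was used at 1 μM for 24 h, so concentration and time were matched. The study lists a lower half-maximal inhibitory concentration against G9a for A366 than for RK-701, so equal inhibition of G9a is not shown. The latrunculin A control without an inhibitor (CC_cont) had 2 libraries. Trichostatin A (TSA), which blocks histone deacetylases, was used at 25 nM over 8 h. Embryos given it together with A366 or with RK-701 had 2 libraries each. Embryos made by in vitro fertilization (IVF), from C57BL/6N oocytes and DBA2 sperm, had 4 libraries. Every library pooled 5 to 10 embryos collected 28 to 29 h after activation or insemination, so no value belongs to a single embryo. The labels do not say whether libraries of a group came from separate days. The p-values of genes and TE families rest on the spread between libraries within groups, estimated over all 25 libraries.

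G9a, encoded by Ehmt2, works as a pair with GLP, encoded by Ehmt1, and the mono- and dimethylated H3K9 they leave is read as a repressive mark and can serve as the substrate for trimethylation. In mouse 2-cell embryos the zygotic genome is switched on while mRNA stored by the oocyte is degraded. The Zscan4 genes, the Obox homeobox genes and the MERVL retrovirus with its MT2_Mm long terminal repeat are known for their burst of transcription at this stage, and in cloned embryos donor-cell H3K9 trimethylation is known to hold part of the genome silent.

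The 5 libraries held 10472261 to 14572436 read pairs on genes, so the groups overlapped in depth. Markers of the 2-cell stage were present, with a summed normalized count (CPM, reads scaled to a common library size after trimmed-mean normalization) of 690 to 866 with A366, 739 to 973 with RK-701 and 1093 to 1323 in IVF embryos over 8 genes. Oocyte markers (5 genes found of 6) summed to 209 to 211 CPM with A366, 446 to 505 with RK-701, 222 to 320 in CC_cont and 498 to 561 in IVF embryos. The 4 male markers, which lie on the Y chromosome, summed to 0 to 1.03 CPM in the 5 libraries, as the female donors would give. Blastocyst markers (5 genes) summed to 6.38 to 7.75 CPM with A366 and 7.20 to 17.7 with RK-701.

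Without TSA, the A366 and RK-701 libraries differed in many genes. Of 25794 autosomal genes tested, 2083 (8.08%) differed at an adjusted p under 0.05 and a fold over 2 (DEGs). Of these, 1025 (3.97%) were higher and 1058 (4.1%) were lower with A366, and the median log2 fold change over all genes was -0.03. Leaving out the second A366 library left 1074 DEGs, and leaving out any other library of the 5 left 1598 to 1921. The lowest A366 library was above the highest RK-701 library for 20.8% of genes, and the reverse held for 21.6%. In the distance over log2(TPM + 1) values of 17116 genes, the A366 and RK-701 libraries were 120 to 134 apart, the A366 libraries were 97.0 apart and the RK-701 libraries were 80.1 to 85.3 apart. The 2 libraries of CC_cont, given latrunculin A without a G9a inhibitor, were 125 apart on the same measure. That is as far as libraries of the different inhibitors. The between-group distance exceeded the within-group distance by 41.5 (exact permutation test, one-sided, p = 0.1, the smallest that the 10 possible splits allow).

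**Figure D1:**
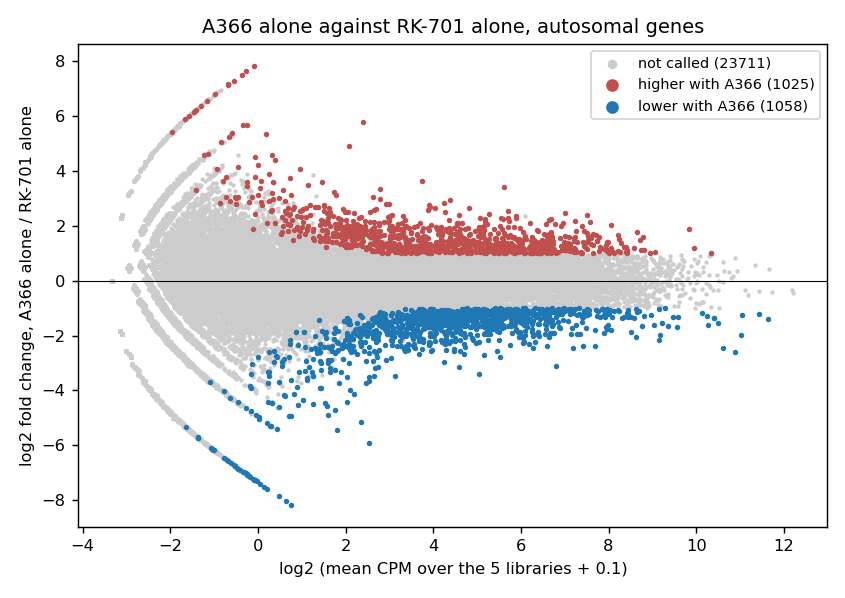
Each point is an autosomal gene, with the log2 of its mean CPM over the 5 libraries (plus 0.1) on the x axis and the log2 fold change of A366 alone over RK-701 alone on the y axis. Red points are the 1025 genes higher and blue points the 1058 genes lower with A366, and the curved edges at the left are genes with no read in 1 of the groups.

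How well the data bound a gene's difference depended on its level. Among genes over 100 CPM, 61.5% had a 95% interval that lay within a 2-fold difference in either direction, and between 10 and 100 CPM 43.7% did. Between 1 and 10 CPM only 4.93% of 7019 genes did, and below 1 CPM 3.39% did. For most genes under 10 CPM a difference could thus be missed at this depth. The counts of gene lists given below are read against 3.97% of all genes higher and 4.1% lower.

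Genes of the immediate-early response were higher with A366. These genes encode transcription factors and feedback regulators that cells transcribe within minutes of a growth factor or a stress, and the list was put together after values had been seen, so its count is a description. Of 46 tested members 20 were higher and 1 was lower, with a median log2 fold change of 1.52. Their summed CPM was 1537 to 1981 with A366, 872 to 925 with RK-701 and 1095 to 1299 in CC_cont. Without the second A366 library 11 were higher and none lower.

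Ier5, an immediate-early gene that takes part in the heat shock response, lies on chromosome 1 at 155096361 to 155099636 on the minus strand (mm10). It had 72.0 and 143 CPM with A366, and 10.99, 11.3 and 8.00 CPM with RK-701. The A366 libraries lay above all RK-701 libraries, although they differed from each other. The log2 fold change was 3.41 ± 0.32 (SE, adjusted p = 4.31e-07), and 2.77 without the second A366 library. Klf2, a zinc finger transcription factor of naive pluripotency and of endothelium, had 33.0 and 42.2 CPM with A366, and 5.47, 8.97 and 5.70 CPM with RK-701. Its libraries did not overlap, at a log2 fold change of 2.49 ± 0.32 (SE, adjusted p = 7.87e-06). Smad7, an inhibitor of TGF-beta signalling, had 173 and 204 CPM with A366, and 37.4, 43.5 and 42.6 CPM with RK-701, which gave a log2 fold change of 2.20 ± 0.22 (SE, adjusted p = 6.35e-07). Jund, a subunit of the AP-1 transcription factor, had 24.0 and 35.5 CPM with A366 against 1.74, 3.13 and 2.38 CPM with RK-701.

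Other members of the list differed in the same direction. Snai1, a repressor of epithelial genes, averaged 47.0 ± 11.6 CPM with A366 (SD, n = 2) and 8.87 ± 0.66 CPM with RK-701 (SD, n = 3). Socs3, a feedback inhibitor of cytokine signalling, averaged 63.6 ± 9.49 against 13.2 ± 3.36 CPM. Mcl1, a survival factor of the Bcl-2 family, averaged 168 ± 39.9 against 53.5 ± 2.29 CPM. Dusp1, a phosphatase that turns off MAP kinases, and Cited2, a coactivator partner, had log2 fold changes of 1.97 and 3.35, which fell to 1.38 and 2.74 without the second A366 library. Cited2 stood at 4.10 without the first RK-701 library. Klf6 was the member lower with A366, at 2.05 ± 0.77 against 7.58 ± 1.53 CPM, and it lost its call in 3 of the 5 fits that left out 1 library. Fos, the gene most often used to mark this response, had a log2 fold change of -0.75 and was not called, at no more than 1.55 CPM in any library.

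Promoters of genes from the highest and the lowest gene lists are shown because the lists differed in base composition. The windows are the 250 bases before the start of each gene in RefSeq (GRCm38.p6), on the gene's strand. For Nlrp5 that start differs from the start of the counted gene (chr7:23385889-23441922, plus strand). Its window lies within the counted gene and may not be the promoter of the reads counted. Capitals mark the GC box (GGGCGG or its reverse complement CCGCCC), the CCAAT box (CCAAT or ATTGG) and the TATA box (TATAAA or TTTATA). Ier5 (chr1:155099637-155099886, minus strand) and Klf2 (chr8:72318812-72319061, plus strand) were higher with A366, and Nlrp5 (chr7:23403852-23404101, plus strand) and Zscan4d (chr7:11166149-11166398, minus strand) were lower.
Ier5: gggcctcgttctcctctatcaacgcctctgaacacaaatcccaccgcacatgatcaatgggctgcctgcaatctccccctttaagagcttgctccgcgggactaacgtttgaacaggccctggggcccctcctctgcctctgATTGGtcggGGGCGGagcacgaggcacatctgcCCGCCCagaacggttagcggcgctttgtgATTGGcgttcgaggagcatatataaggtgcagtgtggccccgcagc
Klf2: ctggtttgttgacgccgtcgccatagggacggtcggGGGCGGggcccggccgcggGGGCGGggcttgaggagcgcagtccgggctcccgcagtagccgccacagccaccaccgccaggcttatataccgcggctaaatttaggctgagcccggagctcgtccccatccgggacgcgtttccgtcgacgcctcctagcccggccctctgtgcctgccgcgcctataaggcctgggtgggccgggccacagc
Nlrp5: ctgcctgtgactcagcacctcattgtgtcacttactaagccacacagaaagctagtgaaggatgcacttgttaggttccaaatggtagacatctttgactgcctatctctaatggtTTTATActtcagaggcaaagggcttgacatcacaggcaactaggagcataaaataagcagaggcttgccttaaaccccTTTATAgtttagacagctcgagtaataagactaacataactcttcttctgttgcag
Zscan4d: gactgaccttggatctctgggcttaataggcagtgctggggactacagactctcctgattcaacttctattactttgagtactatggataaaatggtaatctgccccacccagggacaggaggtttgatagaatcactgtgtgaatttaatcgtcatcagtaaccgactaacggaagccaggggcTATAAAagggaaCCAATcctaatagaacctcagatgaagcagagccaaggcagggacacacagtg

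The Ier5 window was 60% G and C and the Klf2 window 71.2%, against 42.4% for Nlrp5 and 46.4% for Zscan4d. A GC box was found in 32 of the 39 immediate-early promoters that matched (82.1%), in 2 of the 20 matched promoters of the Nlrp, Oog and Tcl1 families (10%), and in 32.9% of all 27025 windows. Windows matched to tested genes held it in 48.8%, with 56.1% of those genes matched. Ribosomal protein genes, also higher with A366, held it in 23 of 53 matched windows (43.4%). The TATA box was in 6 immediate-early windows (15.4%), 4 of the Nlrp, Oog and Tcl1 windows (20%) and 1 ribosomal protein window (1.89%). All windows held it in 13.0%. The CCAAT box was in 17 (43.6%), 7 (35%) and 14 (26.4%) of the same sets in that order, and in 34.5% of all windows. A match is a description of these letters on either strand. The same count over all DEGs was void, since a window was found for only 65.4% of those higher and 66.7% of those lower. The share over tested genes, of which 56.1% matched, has the same limit.

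**Figure D2:**
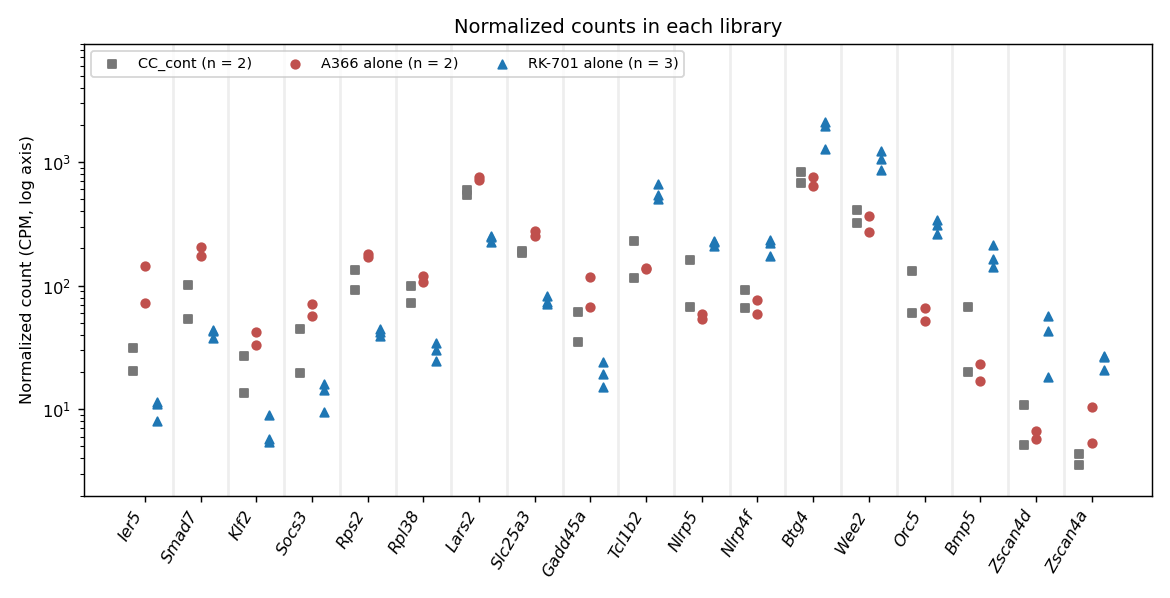
Points are the normalized counts (CPM, log axis) of 18 genes in each library of CC_cont (squares), A366 alone (circles) and RK-701 alone (triangles). From Ier5 to Gadd45a the A366 libraries lie above all RK-701 libraries, and from Tcl1b2 to Zscan4a they lie below them.

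Ribosomal protein genes were the other broad set that was higher with A366. This list was made by gene name after values had been seen. Of 73 genes 20 were higher and none was lower, with a median log2 fold change of 0.80. For 65 of the 73 both A366 libraries were above all RK-701 libraries, against 20.8% of all genes. Rps2, a protein of the small subunit (chromosome 17, 24718116 to 24721929, plus strand, mm10), had 171 and 180 CPM with A366, and 39.3, 41.9 and 44.95 CPM with RK-701. Its log2 fold change was 2.06 ± 0.20 (SE, adjusted p = 5.35e-07). Rpl38, Rpl13 and Rplp1 of the large subunit had log2 fold changes of 1.93, 2.10 and 1.603. Many ribosomal protein genes have processed pseudogene copies, so reads that fit more than 1 place were dropped and levels of single members are uncertain.

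Genes that assemble ribosomes did not move as a set, with 4 of 59 higher, 1 lower and a median of 0.09. Imp3, a component of the small-subunit processome, averaged 103 ± 21.9 against 17.9 ± 3.45 CPM. Rrs1, a ribosome assembly factor, averaged 93.4 ± 32.0 against 24.1 ± 1.43 CPM. Noc3l, which is also an assembly factor, was lower at 93.4 ± 3.71 against 229 ± 15.3 CPM.

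Genes of the smallest p outside these lists included mitochondrial ones. Lars2, the leucyl-tRNA synthetase of mitochondria (chromosome 9, 123366927 to 123462666, plus strand, mm10), had 759 and 708 CPM with A366, and 248, 250 and 225 CPM with RK-701. The replicates of each group lay close together, and the log2 fold change of 1.61 ± 0.14 (SE) had the smallest adjusted p of all genes (2.14e-07), which the predicted gene Gm15564, named after its value was seen, shared. Slc25a3, the phosphate carrier of the inner mitochondrial membrane, had 254 and 278 CPM with A366 against 73.9, 83.0 and 70.8 CPM with RK-701. Transcripts of the mitochondrial genome took 6.39 to 6.97% of gene reads with A366 and 4.55 to 5.12% with RK-701. The part of this share in the result was not tested.

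Growth arrest and stress genes were partly higher with A366. Of 26 tested p53 targets 3 were higher and none lower, with a median of 0.63, and without the second A366 library 5 were higher. Gadd45a, which acts in arrest after DNA damage, had 66.5 and 117 CPM with A366, and 19.2, 23.9 and 15.1 CPM with RK-701. Ei24, a gene induced by p53, averaged 345 ± 0.95 against 106 ± 22.7 CPM, and Ddit4, an inhibitor of mTOR signalling, averaged 22.4 ± 2.00 against 5.63 ± 0.42 CPM. Mdm2, which encodes the ligase that degrades p53, had a log2 fold change of 0.98 and an adjusted p of 0.0001, just under the fold of 2. Cdkn1a, the best known arrest target of p53, had a log2 fold change of -0.43 and was not called.

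Of 27 heat shock and chaperone genes 5 were higher and 1 was lower (median 0.21), and without the second A366 library 1 was higher and none lower. Hspa1b, an inducible Hsp70, averaged 30.5 ± 10.9 against 4.53 ± 0.51 CPM, and its near-identical neighbour Hspa1a averaged 16.0 ± 10.3 against 2.30 ± 0.48 CPM. Reads shared by these copies were not counted, so their levels are uncertain. Stip1, a co-chaperone that links Hsp70 to Hsp90, was lower at 234 ± 25.0 against 513 ± 91.6 CPM. The integrated stress response had 3 of 32 genes higher and 1 lower (median -0.28), and without the second A366 library 1 was higher and 1 lower. Atf4, its main transcription factor, had a log2 fold change of 0.82 without passing a fold of 2. The called members were Ddit4, Slc7a5 (an amino acid transporter, log2 fold change 1.70), Cebpb (a transcription factor, 4.07) and Sars (a seryl-tRNA synthetase, -1.58). Cebpb had few reads, under 10 in an A366 library, so its fold is uncertain.

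Cumulus cell markers had a median log2 fold change of 0.96, with 1 of 15 tested genes called. Their summed CPM was 236 to 249 with A366, 97.6 to 116 with RK-701 and 163 to 181 in CC_cont. Gja1, a gap junction protein that oocytes and embryos also make, was the called member and most of the sum, at 171 and 145 CPM with A366 against 45.3, 64.9 and 58.7 CPM with RK-701. Inha was at 0 in all 5 libraries, and Ptx3, Amh and Foxl2 were at or below 0.21 CPM in each. In pooled embryos fewer cells of a type and less RNA per cell cannot be told apart.

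Genes of the Nlrp, Oog and Tcl1 families, which are transcribed in growing oocytes and carried into the embryo, were lower with A366. The list was put together after values had been seen. Of 22 tested members 17 were lower and none was higher, with a median log2 fold change of -1.64. For 20 of the 22 both A366 libraries lay below all RK-701 libraries, against 21.6% of all genes. Their summed CPM was 4326 to 4448 with A366, 10549 to 14556 with RK-701 and 3469 to 6762 in CC_cont. The median stayed between -1.88 and -1.504 in 10 alternative fits, with 15 to 18 members lower. The families hold near-identical genes and only reads of a single position were kept, so single members other than Nlrp5 and Nlrp14 are uncertain.

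Nlrp5, a member of the subcortical maternal complex without which embryos stop at the 2-cell stage (chromosome 7, 23385889 to 23441922, plus strand, mm10), had 59.4 and 53.6 CPM with A366, and 228, 225 and 207 CPM with RK-701. The groups did not overlap and each varied little. The log2 fold change was -1.96 ± 0.25 (SE, adjusted p = 9.50e-06). Tcl1, a coactivator of the kinase Akt, had 515 and 422 CPM with A366, and 3733, 1932 and 2861 CPM with RK-701. Tcl1b2 had 140 and 136 CPM with A366, and 661, 499 and 544 CPM with RK-701. Oog3 averaged 1611 ± 119 CPM with A366 and 4209 ± 351 CPM with RK-701. Nlrp14 averaged 142 ± 23.7 against 353 ± 73.5 CPM, and IVF embryos had 710 ± 84.4 CPM (SD, n = 4).

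Of the 32 tested oocyte-stored maternal genes, a list that shares Nlrp members with the one above, 10 were lower and 2 were higher (median -0.55). Btg4, an adaptor of the CCR4-NOT deadenylase that clears maternal mRNA, had 634 and 757 CPM with A366, and 2118, 1283 and 1970 CPM with RK-701. Zp2, a zona pellucida glycoprotein made in the oocyte, averaged 37.3 ± 7.17 against 80.7 ± 11.2 CPM, and lost its call without the second A366 library. Bcl2l10, a Bcl-2 family member of oocytes, averaged 192 ± 40.2 against 448 ± 100 CPM. Gas5, a small nucleolar RNA host gene, was higher at 321 ± 12.3 against 151 ± 32.1 CPM. Khdc3, a partner of Nlrp5 in the subcortical maternal complex, was the other higher member, but only at 1.17 and 3.02 CPM against 0.06 to 0.17 CPM.

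Other genes of the smallest p among those lower with A366 had varied roles. Wee2, the kinase that holds oocytes in prophase, had 274 and 368 CPM with A366, and 1225, 858 and 1050 CPM with RK-701 (log2 fold change -1.70 ± 0.19, SE, adjusted p = 1.64e-06). Orc5, a subunit of the origin recognition complex, had 51.4 and 65.3 CPM with A366, and 340, 262 and 310 CPM with RK-701 (log2 fold change -2.38 ± 0.26, SE). Bmp5, a ligand of the BMP family, had 23.2 and 16.8 CPM with A366, and 214, 141 and 165 CPM with RK-701 (log2 fold change -3.12 ± 0.34, SE). Ighg2b, an immunoglobulin constant region gene, averaged 21.5 ± 1.40 against 106 ± 15.6 CPM.

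Of 48 DNA replication genes 2 were higher and 2 lower, with a median of -0.35. For 25 of the 48 both A366 libraries lay below all RK-701 libraries and for 11 above, against 21.6% and 20.8% of all genes, and 26 had an unadjusted p under 0.05. Cdt1, which loads the replicative helicase, and Ccna2, the cyclin of S phase, were higher, with log2 fold changes of 1.52 and 1.11. Rpa1, the single-strand DNA-binding protein, and Pold3, a subunit of DNA polymerase delta, were lower at -1.20 and -1.09.

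Zscan4 genes, which mark the 2-cell transcriptional burst, were lower with A366. Of 6 members 3 were lower and all 6 had negative log2 fold changes, with a median of -1.63. Zscan4d had 5.71 and 6.65 CPM with A366, and 18.4, 42.7 and 57.1 CPM with RK-701, against 178 ± 19.4 CPM in IVF embryos. The A366 libraries were below all RK-701 libraries, which spread widely, and the log2 fold change was -2.66 ± 0.44 (SE, adjusted p = 1.65e-04). Zscan4a had 5.29 and 10.4 CPM with A366 and 20.9, 26.7 and 27.1 CPM with RK-701 (log2 fold change -1.66 ± 0.31, SE), and -2.30 without the second A366 library. Zscan4f was the other called member, at 0.81 ± 0.28 against 4.49 ± 1.07 CPM, and lost its call without the second A366 library. The copies of this cluster are nearly identical, so values of single members are uncertain. Side by side, the log2 fold changes of Zscan4d were -0.40 for A366 and 2.26 for RK-701 against CC_cont, which both comparisons share.

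Over the 34 tested genes of the 2-cell list, which includes the Zscan4 genes, 6 were lower and none higher, with a median of -0.44, and 3 were lower without the second A366 library. Tdpoz3 and Tdpoz4, of a clustered family of near-identical genes, had log2 fold changes of -2.17 and -1.40, and both lost their calls when either of the A366 libraries was left out. Tcstv3, also of a clustered 2-cell family, had 150 and 126 CPM with A366 and 87.1, 71.4 and 70.7 CPM with RK-701 (log2 fold change 0.85, adjusted p = 0.032), under the fold of 2. Arg2, a mitochondrial arginase, averaged 42.9 ± 1.70 against 128 ± 29.0 CPM. Zfp352, a zinc finger gene that is abundant at this stage, averaged 257 ± 61.5 against 294 ± 30.2 CPM, with a log2 difference between -0.66 and 0.28 (95% interval).

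Among the Obox homeobox genes 2 of 8 were lower and none higher (median -0.57). Obox1 averaged 51.6 ± 2.74 against 127 ± 20.6 CPM. Obox3 had 69.2 and 58.4 CPM with A366, and 90.4, 141 and 147 CPM with RK-701, with a log2 fold change of -0.98 that did not reach a fold of 2. Obox6 had a log2 fold change of -0.37 (95% interval -0.84 to 0.09) and Obox8 of 0.60 (0.11 to 1.09, adjusted p = 0.10). Eif1a, a translation initiation factor, had a log2 fold change of -0.74 (adjusted p = 0.066). The germline genes Terb2 and Cstf2t had log2 differences between -0.39 and 0.52, and between -0.18 and 0.76, and Cox7b2 had at most 0.084 CPM in each of the 5 libraries. The study listed 879 genes as resistant to reprogramming (RRGs), chosen in part by their level in its own SCNT against IVF embryos. Of these RRGs 51 were higher (5.80%), 71 were lower (8.08%) and the median was -0.17. Without the second A366 library 17 were higher and 25 lower.

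Germline and meiosis genes had 5 of 49 members lower and none higher (median -0.51), and without the second A366 library 2 were lower. Brdt, a bromodomain protein of the testis that oocytes also transcribe, averaged 376 ± 26.05 against 939 ± 186 CPM. Nobox, a homeobox factor of oocytes, averaged 6.39 ± 2.24 against 20.4 ± 2.79 CPM and lost its call in all 5 fits that left out 1 library. The other called members, Tex14, Mei4 and D1Pas1, had log2 fold changes of -1.57, -1.36 and -3.93.

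Of regulators of totipotency and pluripotency 5 of 23 were higher and 1 was lower (median 0.24), and without the second A366 library 3 were higher and none lower. Besides Klf2 these were Klf4, at 123 and 134 CPM with A366 and 51.6, 44.4 and 48.6 CPM with RK-701, Klf5, Esrrb and Tfap2c, with log2 fold changes of 1.03, 1.42 and 1.26. Klf5 and Tfap2c lost their calls in 2 and in 5 of the 5 fits that left out 1 library. Zfp42, known as Rex1, was lower at 29.9 ± 13.5 against 80.6 ± 13.3 CPM, and not called without the second A366 library. Klf17 had a log2 fold change of -0.91, just under the fold of 2.

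Ehmt2 had 30.1 and 26.2 CPM with A366 and 31.7, 23.7 and 28.7 CPM with RK-701, a log2 difference of 0.01 with a 95% interval of -0.45 to 0.46. Its sign turned in several alternative fits. Ehmt1 had 79.5 and 95.8 CPM with A366 and 43.4, 62.1 and 43.3 CPM with RK-701 (log2 fold change 0.82 ± 0.21, SE, adjusted p = 0.0087), which did not reach a fold of 2. Of 19 tested H3K9 methyltransferases and partners 1 was higher, the G9a and GLP partner Wiz at 15.5 ± 3.93 against 6.59 ± 1.85 CPM, and its call was lost in 4 of 5 fits that left out 1 library.

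Of 12 genes listed as H3K9 demethylases, Riox1 was higher at 43.5 ± 2.14 against 11.8 ± 2.40 CPM, and Kdm4a was lower at 37.0 ± 5.25 against 74.8 ± 16.0 CPM. Riox1 is a related oxygenase that is not established as an H3K9 demethylase. Of 9 histone deacetylases Hdac1 was lower, at 146 and 114 CPM with A366 and 265, 359 and 303 CPM with RK-701, and Hdac2 had a log2 fold change of 0.64. The calls of Kdm4a and Hdac1 were lost without the second A366 library, and that of Kdm4a also without the third RK-701 library. None of 16 DNA methylation genes was called by edgeR's quasi-likelihood test (median -0.15), with 6 at an unadjusted p under 0.05 and 0 to 1 called over 10 alternative fits, DESeq2 among them.

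Genes that respond to foreign compounds or oxidants gave 5 of 30 lower and 1 higher (median -0.09), and without the second A366 library 1 lower and 1 higher. Nfe2l2, the transcription factor NRF2, averaged 17.1 ± 3.60 against 55.7 ± 9.33 CPM. Gstm1, a glutathione transferase that conjugates foreign compounds, had 109 and 56.9 CPM with A366, and 346, 289 and 235 CPM with RK-701, and 3.11 ± 1.21 CPM in IVF embryos. Its call was lost without the second A366 library. Nqo1, a quinone reductase and target of NRF2, averaged 9.48 ± 2.02 against 19.4 ± 1.97 CPM, and the call was lost in 4 of 5 fits that left out 1 library. Mt2, a metallothionein, was the higher member at 322 ± 71.8 against 110 ± 15.6 CPM.

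In lists of actin and serum response factor (SRF) targets, a pathway that latrunculin A touches in both groups, 6 of 32 genes were higher and 2 lower (median -0.19), and without the second A366 library 2 were higher and 1 lower. Srf averaged 31.2 ± 5.71 against 9.87 ± 0.68 CPM and lost its call once expression was adjusted for transcript GC content. Pfn1, which encodes profilin, averaged 30.2 ± 5.04 against 8.15 ± 1.01 CPM. Actg1, a cytoplasmic actin, was lower at 14.8 ± 1.73 against 36.4 ± 2.22 CPM and lost its call without the second A366 library. Sterol synthesis had 1 of 27 higher, the feedback regulator Insig1 at 146 ± 33.7 against 41.5 ± 4.31 CPM, and 1 lower (median 0.01). Apoptosis genes had 3 of 31 higher and 3 lower (median 0.12), lysosome genes 1 of 31 higher and 2 lower (0.14), and autosomal genes imprinted by H3K27 methylation 1 of 10 higher (-0.07).

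**Figure D3:**
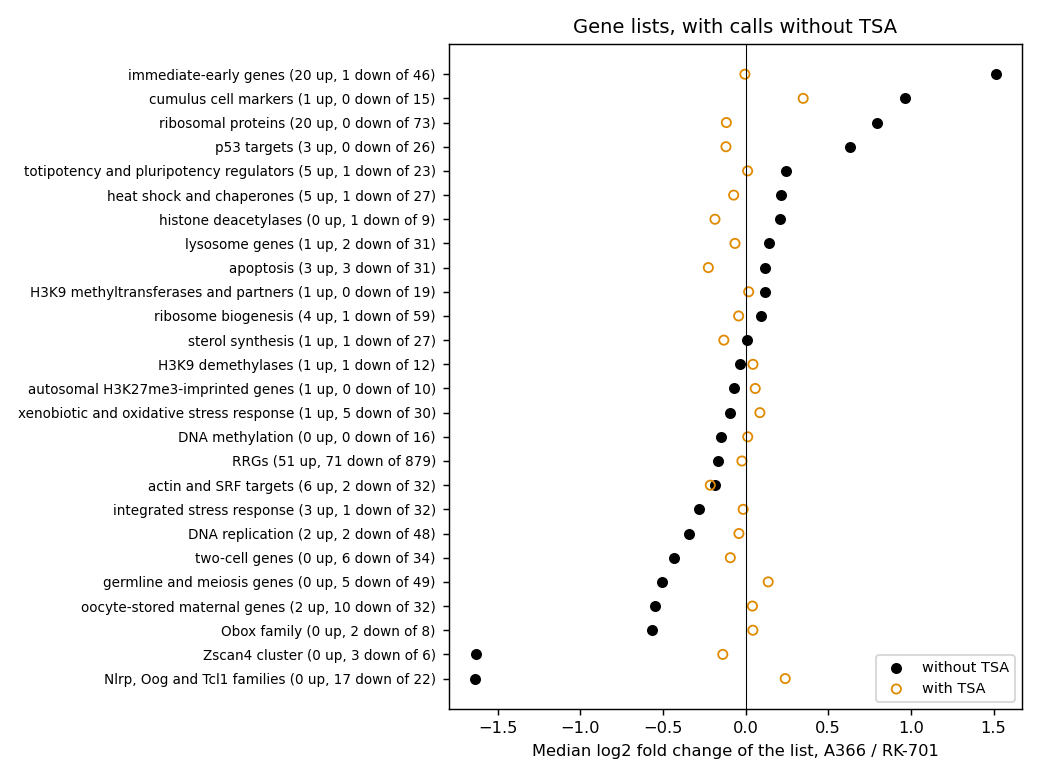
The median log2 fold change of A366 over RK-701 is drawn for each gene list, without TSA (filled) and with TSA (open), and the labels give the genes called higher and lower without TSA. The medians run from -1.64 for the Nlrp, Oog and Tcl1 families to 1.52 for the immediate-early genes without TSA, and those with TSA lie between -0.23 and 0.35.

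The genes of largest fold were scarce in 1 of the groups. Pcdh8, a protocadherin, had 0.84 and 2.81 CPM with A366 and no read with RK-701, which is at least 7.87-fold higher against a floor of 3 reads per library. Cxcr4, a chemokine receptor, had 1.85 and 1.78 CPM with A366 and 1 read with RK-701, a ratio of 71.8 with a counting interval of 12.3 to 2896. Id4, an inhibitor of helix-loop-helix factors, had 3.69 and 4.80 CPM with A366 and 0.09 to 0.37 CPM with RK-701. On the other side Pparg, a nuclear receptor of fat metabolism, had 0.25 and 0 CPM with A366, and 5.28, 4.06 and 7.24 CPM with RK-701, a ratio of 48.6 with a counting interval of 16.4 to 237. Mroh2b had 0 and 0.27 CPM with A366 and 7.37 to 13.4 CPM with RK-701. Sult1c1, a sulfotransferase, had no read with A366 and 1.44 to 2.13 CPM with RK-701, which is at least 7.73-fold lower. The growth hormone receptor Ghr and the intermediate filament Vim had 1 or 2 reads over both A366 libraries. Vnn1, Tmem86b, Dydc2, Msx1, Olfr288, Tm4sf1, Cyp2c70, Myot, Rad21l, Kcnh5, Nudt6, Sult1c1, Ghr and Vim each lost their call in at least 1 fit that left out 1 library.

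TE families were mostly higher with A366. Of 677 families 150 (22.2%) differed at an adjusted p under 0.05, with 137 (20.2%) higher and 13 (1.92%) lower, and the median log2 fold change was 0.32. By a fold over 2 in addition, 40 were higher and 7 lower. The share of all counted reads that fell on TEs was 14.1 to 15.0% with A366 and 10.0 to 11.1% with RK-701. When library size was taken from TE reads in place of gene reads, the split was 53 higher and 57 lower, so the split of directions moved with the scaling. Without the first A366 library 54 families were called, without the second 74 and without the first RK-701 library 71.

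Short interspersed elements (SINEs), the transcribed or gene-embedded copies of small RNA genes, gave the largest sum. SINE reads summed to 77071 and 70783 CPM with A366, and 39781, 42734 and 42914 CPM with RK-701, which was 1.77-fold. Of 31 families 14 (45.2%) were higher and none lower, against 20.2% and 1.92% of all TE families. Copies inside genes summed 1.79-fold and copies outside genes 1.85-fold higher. B2_Mm1a had 14652 and 15009 CPM with A366, and 6468, 6802 and 7140 CPM with RK-701 (log2 fold change 1.12 ± 0.18, SE, adjusted p = 5.19e-04). B1_Mus2 averaged 7644 ± 1814 against 3100 ± 140 CPM. B1_Mm had a log2 fold change of 1.28, although 1 copy on chromosome 15 held 1111 of 4076 CPM in the first A366 library.

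Long interspersed elements (LINEs), which copy themselves through an RNA, summed 1.63-fold higher. Of 116 families 39 (33.6%) were higher and 1 lower, against 20.2% and 1.92% of all TE families. L1MdTf_I, a young mouse L1 family, had 1091 and 219 CPM with A366, and 52.5, 49.8 and 79.8 CPM with RK-701. In the first A366 library 632 CPM came from 1 copy of 205 bases on chromosome 3, which had 11.3 CPM in the second. The log2 fold change of 3.43 ± 0.69 (SE) was 1.83 without that library and was then not called.

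Long terminal repeat (LTR) elements summed 1.12-fold higher. Of 423 families 72 (17.0%) were higher and 9 lower, against 20.2% and 1.92% of all TE families. MT2_Mm, the terminal repeat of MERVL that drives genes at the 2-cell stage, had 4590 and 4854 CPM with A366, and 1537, 2444 and 2212 CPM with RK-701. Its libraries did not overlap (log2 fold change 1.19 ± 0.22, SE, adjusted p = 7.58e-04). MERVL-int, the internal part of the same retrovirus, had 6438 and 4782 CPM with A366 and 2749, 4406 and 3896 CPM with RK-701. Its log2 fold change was 0.61, and the call was lost without the first A366 library, without the first RK-701 library and with library size from TE reads. ORR1A0, the repeat of a related retroviral family, averaged 1596 ± 165 against 756 ± 152 CPM, while ORR1A0-int and MTA_Mm had log2 fold changes of 0.24 and 0.23, were not called, and turned to -0.11 each with library size from TE reads.

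MTA_Mm-int, which is abundant in oocytes, was lower with A366, at 7977 and 7025 CPM against 13219, 12116 and 14516 CPM with RK-701 (log2 fold change -0.82 ± 0.18, SE, adjusted p = 0.0030). BGLII_B2, RLTR10A and MurSatRep1 were also lower, with log2 fold changes of -1.54, -0.79 and -0.96. BGLII_B2 lost its call when either of the A366 libraries was left out, and MurSatRep1 when the second was. RLTR21 and RLTR10B2 were higher at 1.33 and 1.29. IAPEz-int, the internal part of the intracisternal A-particle, had a log2 fold change of 0.52 (adjusted p = 0.035), and the call was lost in 4 of the 5 fits that left out 1 library.

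IAPLTR3-int had the smallest p among families, but its reads came largely from 1 place. It had 334 and 395 CPM with A366, and 20.9, 28.5 and 24.6 CPM with RK-701 (log2 fold change 3.89 ± 0.32, SE, adjusted p = 3.30e-08). A single copy of 2689 bases annotated on the Y chromosome (78122965 to 78125653, plus strand, mm10) held 93.7% of the reads with A366 and 30.2% with RK-701. Without it the family was 1.34-fold higher. YREP_Mm, whose copy with most reads is annotated on the Y chromosome too, had 99.5 and 56.9 CPM against 13.7, 10.2 and 9.96 CPM. The 4 Y-linked marker genes summed to 0 to 1.03 CPM in these libraries of female donors, so where these reads arose was not resolved.

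**Figure D4:**
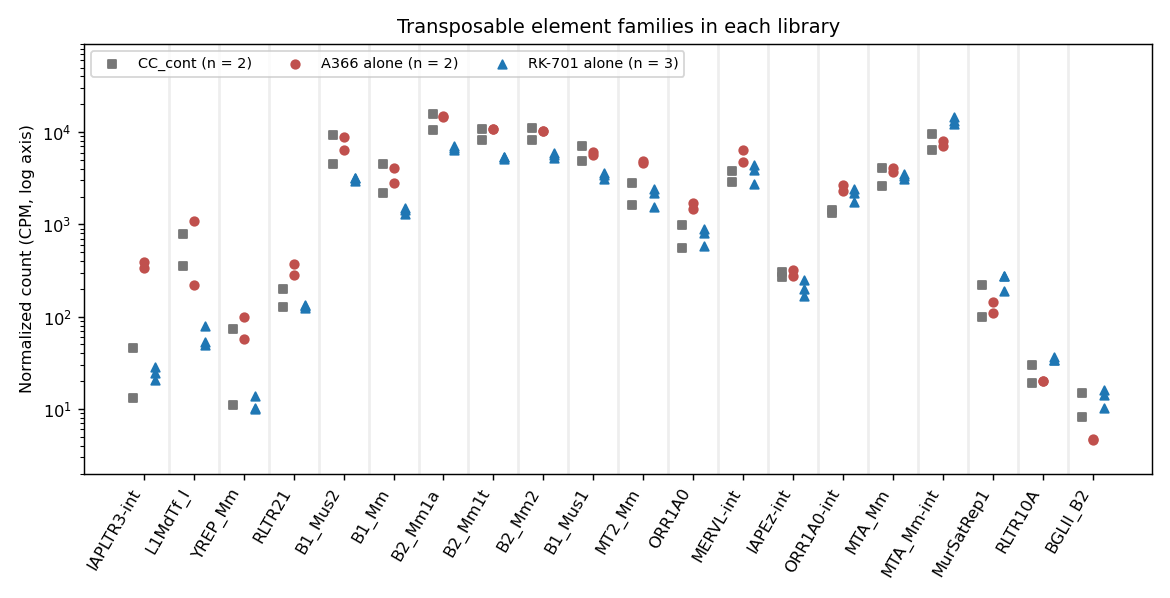
Points are the normalized counts (CPM, log axis) of 20 TE families in each library of CC_cont (squares), A366 alone (circles) and RK-701 alone (triangles). From IAPLTR3-int to ORR1A0 the A366 libraries lie above all RK-701 libraries, those of MERVL-int are 4782 and 6438 CPM against 2749 to 4406 CPM, and for the last 4 families they lie below them.

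With TSA the inhibitors were not told apart. No gene of 25794 passed (0%) by edgeR and none by DESeq2, with 998 genes at an unadjusted p under 0.05, and 7944 genes had a 95% interval within a 2-fold difference. No TE family of 677 passed (0%), with 30 at an unadjusted p under 0.05. Fits that used only the 4 co-treated libraries called 10 genes and 8 families. The difference between inhibitors itself changed with TSA for 894 genes (3.47%, with 1.47% higher and 2% lower with TSA than without) and for 18 families (2.66%), all 18 of which had a smaller difference with TSA or the opposite sign. Without the second library of TSA and RK-701 the count of genes was 178. Ier5 averaged 22.4 ± 4.22 CPM with TSA and A366 and 23.5 ± 7.17 CPM with TSA and RK-701 (SD, n = 2 each), with a log2 difference between -0.78 and 0.64. Nlrp5 averaged 118 ± 21.1 against 112 ± 21.6 CPM with TSA (95% interval -0.45 to 0.60), and Zscan4d 27.7 ± 0.41 against 35.3 ± 17.7 CPM (-1.21 to 0.50).

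Against the latrunculin A control, A366 gave 31 DEGs (21 higher, 10 lower) and RK-701 863 (447 higher, 416 lower). The control libraries are shared by these counts, and the A366 group had fewer libraries than the RK-701 group. The CC_cont libraries lay far apart along the same genes. Of the 1025 genes higher with A366 than with RK-701, 867 (84.6%) were higher in the second CC_cont library than in the first, against 43.8% of all tested genes, and of the 1058 lower genes 948 (89.6%) were lower in it, against 49.9%. Of the same genes, 828 (80.8%) were higher and 839 (79.3%) lower in the first library of TSA alone than in the second, against 45.4% and 47.1% of all tested genes. A score was taken as the mean log2(CPM + 1) of the higher genes minus that of the lower genes, without centring on the mean over all libraries. The score was 1.36 and 1.57 with A366 and -1.45 to -1.18 with RK-701, which the choice of genes sets. In libraries outside that choice it was -0.32 and 1.09 in CC_cont, 1.52 and 0.76 with TSA alone, -0.48 to -0.41 in IVF embryos and 0.21 to 0.63 in the embryos co-treated with TSA and A366 or RK-701. Whether the difference between inhibitors and this spread within CC_cont and within TSA alone have the same source was not tested.

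Base composition moved with the result. Among the 774 genes whose longest transcript was over 60% G and C, 14.0% were higher and 1.03% lower with A366, and the median log2 fold change was 0.73. The median of the same genes was 0 for A366 and -0.71 for RK-701 against the shared CC_cont, and -0.03 between the inhibitors with TSA. Genes of 40 to 50% had medians of -0.11 and -0.12. With offsets for transcript GC content, added after seeing the data, 2001 DEGs were found, of which 1743 were among the 2083. The log2 fold change of Jund moved from 3.63 to 2.34 and that of Klf2 from 2.49 to 1.81, while C1qtnf4 and Srf lost their calls. The part of GC content, mitochondrial share and TE share in the result was not tested.

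**Figure D5:**
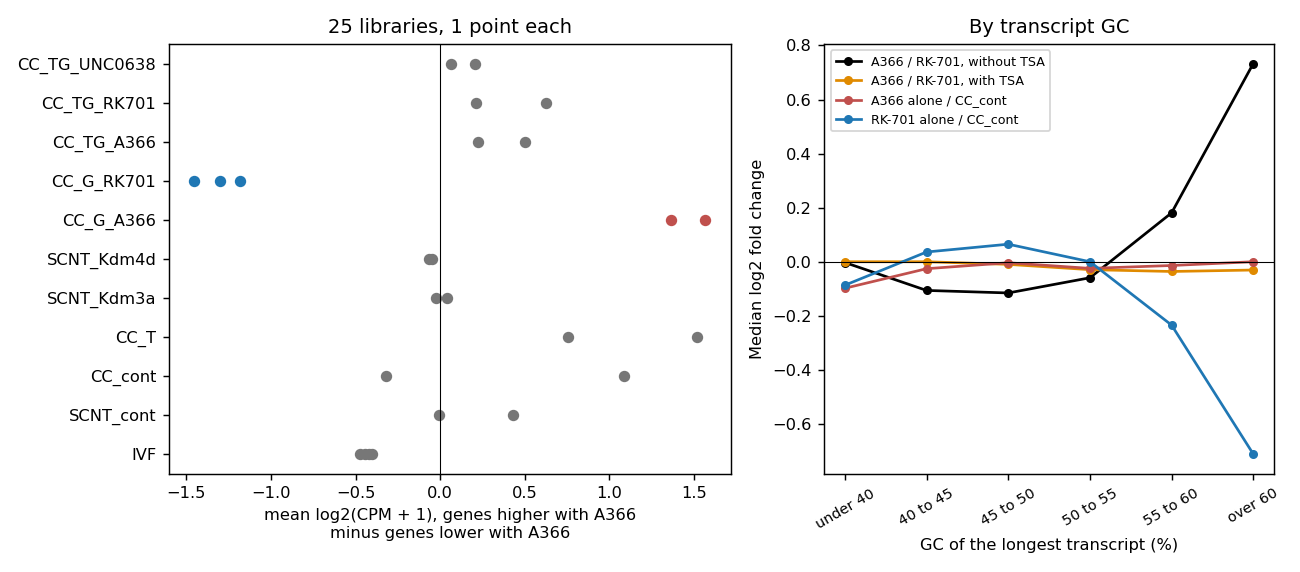
The left panel gives, for each of the 25 libraries, the mean log2(CPM + 1) of genes higher with A366 minus that of genes lower, with the compared libraries in colour, and the CC_cont libraries lie at -0.32 and 1.09. The right panel gives the median log2 fold change of genes by GC content of the longest transcript for 4 comparisons, which reaches 0.73 without TSA over 60% GC and stays near 0 with TSA.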

How the data were processed

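RNA-seq libraries were made from pooled 2-cell embryos with a SMART-Seq HT kit that primes on poly(A). The authors ran Trimmomatic, then STAR on mm10, kept reads of a single position, and counted read pairs over exons and RepeatMasker copies with featureCounts 1.6.2 without strand. Genes and TE copies shared 1 annotation, and pairs on more than 1 feature were not counted. The deposited values are raw counts for 55375 genes and 1755056 TE copies (1092 families) in 25 libraries of 11 groups, with 6662727 to 21188688 gene reads a library.

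Counts were tested with edgeR 4.0.16 (quasi-likelihood test, TMM scaling, 1 term a group over all 25 libraries) in R 4.3.3. The fit kept autosomal genes averaging 1 read or more over the libraries, and TE families averaging 10 or more. Benjamini-Hochberg adjusted p under 0.05 was required, with a fold over 2 for genes. Every adjusted p above is from that fit. Values are CPM after TMM scaling. Intervals are 95% and counting intervals and the floor of 3 reads cover counting error only. On simulated counts with the real means and library sizes the script was tested before use. Alternatives were DESeq2 1.42.0, other scaling and filters, the compared libraries alone, a replicate block, leaving out each library, and, added after seeing the data, GC offsets.

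Genes named were those the study names, up to 12 in each direction with the largest fold and up to 6 with the smallest p, and members of each list with the smallest p or a call. A gene that this rule picks is not reported here. Other list members named were chosen after their values were seen. The members and gene lists were chosen with earlier results of these data known. Replicate numbers did not pair libraries: deviations of same-numbered libraries correlated at -0.061 and -0.077.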

Additional observations from a re-analysis of the deposited data

Results flagged for a closer look

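The difference between A366 and RK-701 with TSA was set against the same difference without TSA by an interaction term, which passed for 894 genes and 18 TE families. Without the second library of TSA and RK-701 the count of genes was 178. The genes given here were picked on the difference without TSA, which is part of the interaction, so the direction of these values is not independent of that choice.

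Among genes with a positive log2 fold change between the inhibitors alone, the log2 difference with TSA minus that without TSA was as follows. The widest values were Vnn1 -12.4, C1qtnf4 -5.73, Khdc3 -5.58, Jund -3.52, Ier5 -3.48, Cited2 -3.27, Rpl13 -3.18, Hspa1a -3.18, Klf2 -2.82 and Pfn1 -2.79. Next were Rps2 -2.68, Socs3 -2.53, Imp3 -2.47, Hspa1b -2.47, Slc25a3 -2.36, Rpl38 -2.34, Ddit4 -2.21, Insig1 -2.19, Gadd45a -2.13 and Smad7 -2.01. Then came Dusp1 -1.90, Lars2 -1.79, Mt2 -1.78, Ei24 -1.71, Mcl1 -1.70, Riox1 -1.68, Snai1 -1.66, Rplp1 -1.65, Rrs1 -1.61 and Gja1 -1.52. The smallest were Cdt1 -1.48, Btg1 -1.38, Klf4 -1.36, Gas5 -1.27, Ctsl -1.08, Mdm2 -1.08 and Ccna2 -1.06. Vnn1, Khdc3 and C1qtnf4 have few reads in some groups, and their values depend on the prior count of the fit.

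Among genes with a negative log2 fold change alone, the log2 difference was positive. The smaller values were Klf17 1.13, Zp2 1.22, Obox1 1.35, Noc3l 1.43, Brdt 1.45, Nlrp4f 1.49, Rpa1 1.53, Nlrp14 1.53, Bcl2l10 1.70 and Zscan4a 1.74. Then came Nfe2l2 1.78, Oog3 1.79, Btg4 1.88, Oog4 1.96, Nlrp5 2.03, Wee2 2.16, Zscan4d 2.31, Ighg2b 2.58 and Tcl1b2 2.58. The wider values were Orc5 2.75, Tcl1 2.94, Bmp5 3.12, Mroh2b 6.30 and Pparg 7.28. Pparg and Mroh2b have few reads with A366 alone.

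Among TE families the log2 difference was IAPLTR3-int -3.47, B1_Mm -1.62, B1_Mus2 -1.37, RLTR21 -1.34, RLTR10B2 -1.27, B2_Mm1a -1.25, B2_Mm1t -1.11, B2_Mm2 -0.94 and B1_Mus1 -0.93.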

How the results depend on the processing

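Of 1442 alternative values for 140 genes and TE families, 1302 kept their direction and their side of the threshold, 118 lost their call (98 of them on leaving out 1 library), 13 gained one and 9 turned sign. Ehmt2 turned to -0.014 with DESeq2, -0.013 with the other scaling (RLE) and -0.0086 with the compared libraries alone, and lay between -0.11 and 0.10 on leaving out 1 library, with -0.10 without the second RK-701 library, and to -0.58 with GC offsets. Terb2 turned to -0.033 without the first A366 library in a range up to 0.11, and ORR1A0-int and MTA_Mm to -0.11 with library size from TE reads. The causes were not tested. Leaving out 1 library gave 1074 to 1921 DEGs between the inhibitors alone, 0 to 1 with TSA, 178 to 890 for the change of the difference with TSA, 54 to 122 TE families alone and 0 to 1 with TSA. The distance was 36.7 to 39.9 on leaving out each RK-701 library, and was not computed without an A366 library. With the compared libraries alone, 10 genes and 8 families were called with TSA, and 1676 genes changed their difference with TSA. Without a filter on low counts 15 genes and 5 families were called with TSA, and DESeq2 called 1514 genes for the change with TSA.

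Replicate numbers are shared between groups but did not pair the libraries. With a replicate block 1772 DEGs and 113 TE families were called without TSA, 634 genes for the change with TSA, and none with TSA. With 2 A366 libraries, and counts under 10 CPM for many genes, a gene that was not called is not shown to be equal.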
